A study of Mus musculus with 6 samples.

Results

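The 10 genes described here encode enzymes of sphingolipid metabolism or their subunits. They are the ceramide synthase genes Cers2, Cers4, Cers5 and Cers6, the desaturase gene Degs1 and the serine palmitoyltransferase subunit genes Sptlc1 and Sptlc2. The others are the sphingomyelin synthase gene Sgms1, the glucosylceramide synthase gene Ugcg and the sphingosine kinase gene Sphk1. All probe sets annotated to exactly 1 of these 10 genes were taken, which gave 26 of the 45037 probe sets tested. The genes were chosen by their measured difference between these same groups, that of Cers6 above all, with the other enzymes set beside it, so their differences are given as a description with standard errors and without p-values. The cells were 393P, a line grown as a mass population from a primary lung tumour of a mouse with the alleles p53R172H∆g/+ and K-rasLA1/+, which both groups carry. There were 3 arrays of cultures with a control vector (393P-scr) and 3 of cultures with a vector expressing an shRNA against MKK4 (393P-shZ). The Map2k4 gene encodes MKK4, a kinase upstream of JNK and p38. The labels describe the vectors once as retroviral and once as transfected with Lipofectamine, and do not say whether each line was a clone or a pool. The p-values below therefore measure only the spread between cultures of 1 line per group.

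Sphingolipids are built from serine and palmitoyl-CoA. Serine palmitoyltransferase makes the first intermediate, a reductase (Kdsr) turns it into dihydrosphingosine, a ceramide synthase attaches a fatty acyl chain, and the desaturase Degs1 inserts the double bond that turns dihydroceramide into ceramide. Each ceramide synthase prefers acyl chains of its own length: Cers5 and Cers6 mainly use palmitoyl-CoA, Cers2 very long chains, Cers4 chains of intermediate length, and Cers3 the very long and ultra-long chains of skin and testis. Ceramide leaves the endoplasmic reticulum to become sphingomyelin or glucosylceramide, or is cleaved to sphingosine, which the sphingosine kinases convert to the signalling lipid sphingosine 1-phosphate.

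The knockdown was seen in every shRNA culture: Map2k4, at the brighter of 2 probe sets, gave 700.3, 638 and 597 units on the control arrays and 240.1, 295 and 287 on the shRNA arrays. This came to a log2 difference of -1.21 (SE 0.08), with a limma Benjamini-Hochberg adjusted p of 0.000386 and p = 0.1 in an exact two-sided permutation test, the smallest that 3 against 3 allows. The dimmer probe set went from 207 to 90.3 units. This p is adjusted over all 45037 probe sets. The adjusted p-values given below for genes outside the members come from the fit of 18193 genes, 1 probe set each. Array medians were 92 to 95.8 intensity units, and arrays correlated at r = 0.990 to 0.995 across probe sets. The bacterial trpnX control probe sets reached up to 39.5 units, which is used below as the background level. All 7 epithelial markers lay above background, and their summed intensity was 47181 to 47868 units on the control arrays and 46536 to 47769.7 on the shRNA arrays. Of these, Krt19 rose by 0.23 on the log2 scale while Epcam (-0.35) and Cdh1 (-0.14) fell. Fibroblast markers summed to 460.4 to 509 and 441 to 517 units, leukocyte markers to 1125 to 1227 and 1052 to 1241, and endothelial markers to 569.8 to 709.7 and 516 to 659, with 0 of these 16 called in limma and 1, Lum, at an unadjusted p under 0.05. Among them, Cd3e, Dcn, Pecam1 and Emcn had group means within background in both groups. The ratio of the 3' to the 5' probe set of 18S ribosomal RNA was 0.392 to 0.424 on the control arrays and 0.276 to 0.358 on the shRNA arrays, without overlap. The ratios of Gapdh and actin overlapped. The part of the marker levels and of these ratios in the results was not tested.

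The members that were higher in the shRNA cultures were 1 ceramide synthase gene, Cers6, and the desaturase gene Degs1, and most of the others differed little. Cers6 and Degs1 were higher with the shRNA on all 3 of their probe sets, and Sgms1 was lower on its brightest probe set. Those 4 of 26 probe sets were called, 3 higher and 1 lower, at a Benjamini-Hochberg adjusted p under 0.05 in limma. Since the members were chosen by their difference between these groups, the count is a description and no test of them. Over all probe sets the share called was 6.37%, with 3.57% higher and 2.79% lower. The 18 other probe sets above background ranged in log2 difference from -0.28 to 0.14, Sgms1 included. The median log2 difference was -0.01 over the 26 and -0.01 over all 45037 probe sets. The groups did not overlap on 7 of the 26 normalized probe sets, beside 23.1% of all probe sets. Among these 7 were the second Sptlc2 probe set and the dimmer Sphk1 probe set, whose groups overlapped on the deposited values. In all, 5 member probe sets, of Cers4, Sptlc1, Sptlc2, Ugcg and Sphk1, lay within background in both groups and carry no readable level. The dimmer Sphk1 probe set is 1 of these 5. The background share fell to between 2.63% and 4.15% when any 1 of the 6 arrays was left out, and the members then gave 3 or 4 calls.

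**Figure D1:**
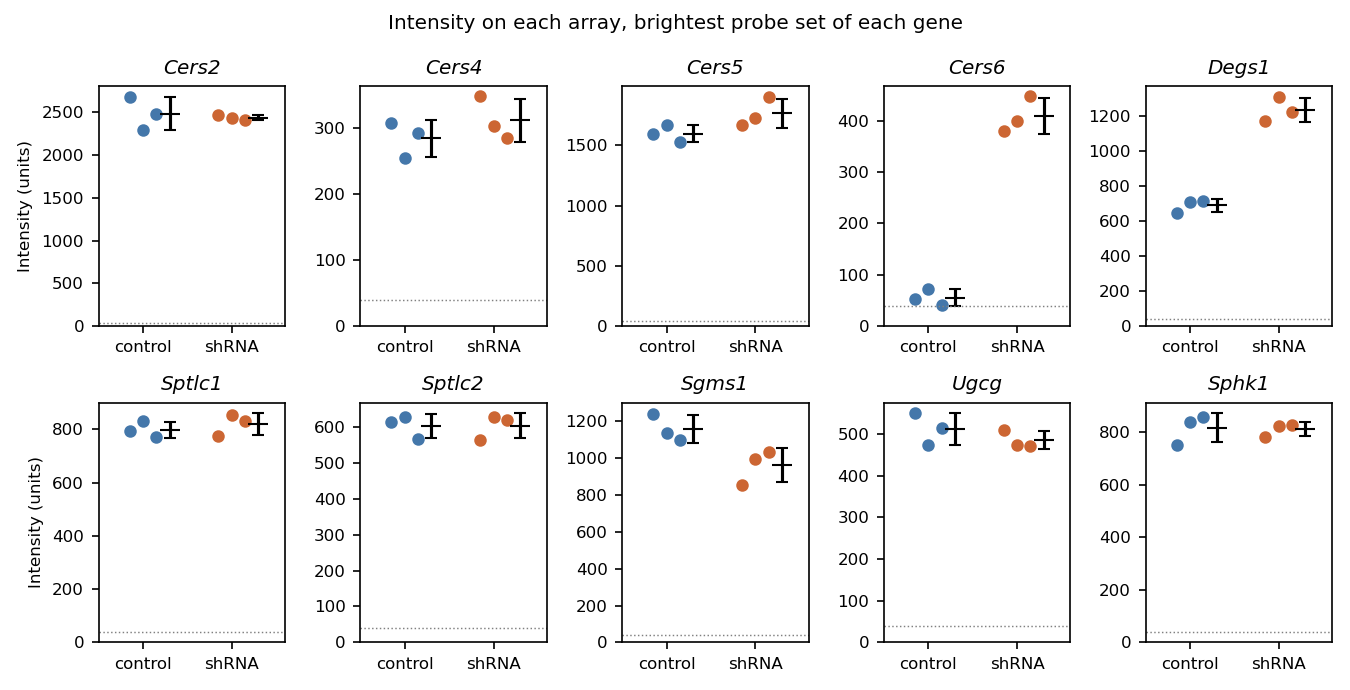
Intensity in units on each array (points; control vector in blue, MKK4 shRNA in orange) for the brightest probe set of each of the 10 genes, with the group mean and SD as black bars and the background level of 39.5 units as a dotted line. Each panel has its own scale from 0. Cers6 and Degs1 separate the groups upward and Sgms1 downward, and in the other panels the groups overlap or, for Cers5, nearly touch.

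Cers6, a ceramide synthase that mainly uses palmitoyl-CoA, had the third highest log2 difference of all 18193 genes. Its only probe set gave 52.3, 72.8 and 40.5 units on the control arrays and 379.5, 399 and 447 on the shRNA arrays. The lowest shRNA array was 5.21 times the highest control array. The group means were 55.2 ± 16.3 units (SD, n = 3) in control cultures against 409 ± 34.6 (SD, n = 3) in knockdown cultures. On the scale of log2(intensity + 16) this was a log2 difference of 2.59 (SE 0.16), or 6.01-fold. The control level lay close to background, with 1 control array at 40.5 units, so the size of the fold is uncertain: the log2 difference was 2.89 with a pseudocount of 1 and 1.98 with 64. RNA of a whole culture cannot tell apart more cells with the transcript from more transcript per cell. Cers6 was called in all 15 alternative settings, including each with 1 array left out, where the log2 difference was 2.43 to 2.76. These settings reuse the arrays by which Cers6 was chosen. The calls therefore describe how the value depends on processing and are no independent support. With a single probe set, no second measurement of Cers6 on the array bears on its value.

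The upstream sequences of Cers6 and Degs1, the members that were higher, are shown beside that of Cers5, the paralogue with the same acyl preference. Each is the window of 250 bases before the annotated start in RefSeq (GRCm38.p6), 5′ to 3′ on the strand of the gene, with capitals for the E-box CACGTG.
Cers6 upstream window, chr2:68861191-68861440, strand +: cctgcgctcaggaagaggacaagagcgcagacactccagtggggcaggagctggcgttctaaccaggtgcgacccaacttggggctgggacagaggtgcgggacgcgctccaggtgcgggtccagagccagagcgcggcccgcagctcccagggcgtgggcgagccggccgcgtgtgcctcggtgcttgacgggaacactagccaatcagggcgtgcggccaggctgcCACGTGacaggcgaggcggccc
Degs1 upstream window, chr1:182282196-182282445, strand -: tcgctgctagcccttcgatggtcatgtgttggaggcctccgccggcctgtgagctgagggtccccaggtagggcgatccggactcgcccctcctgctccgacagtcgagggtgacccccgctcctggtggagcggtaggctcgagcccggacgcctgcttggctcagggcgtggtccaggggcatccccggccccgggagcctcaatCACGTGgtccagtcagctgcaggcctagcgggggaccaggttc
Cers5 upstream window, chr15:99772516-99772765, strand -: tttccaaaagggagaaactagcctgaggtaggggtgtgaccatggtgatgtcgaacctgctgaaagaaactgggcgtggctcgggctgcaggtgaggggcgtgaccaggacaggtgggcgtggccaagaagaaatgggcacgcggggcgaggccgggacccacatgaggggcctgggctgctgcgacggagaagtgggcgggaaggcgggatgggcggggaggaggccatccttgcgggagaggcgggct
The E-box began 22 bases before the start in Cers6 and 43 before it in Degs1, and Cers5 had none. All 10 members matched a RefSeq entry, and 4 of them, Cers2, Cers6, Degs1 and Sphk1, held CACGTG in at least 1 window. Of all 27025 genes with such windows, 6.86% held it, and of 68 other sphingolipid genes with such windows 9 did. Genes with more windows have more room for a match. Cers2 held it in window 1 of 2, and Sphk1 in windows 4 and 5 of 5. Of all 32851 windows 6.02% held it. Cers2 and Sphk1 hold it too but were not called. Their log2 differences were -0.04 for Cers2 and -0.02 on the brightest probe set of Sphk1. The letters CACGTG were chosen for the search after the sequences had been seen. TGANTCA, searched with any base at N, is a wider pattern than the AP-1 site that Jun and Fos proteins bind. This pattern was found in windows of Sgms1 and Sphk1 and in 7.82% of all genes. The CRE letters TGACGTCA were found in no member and in 1.77% of all genes. GGGCGG, the GC box, stood in 7 members but not in Cers6, Degs1 or Sphk1, and in 35.4% of all genes. CCAAT stood in 6 members, Cers6 among them, and in 37.5% of all genes. Every motif was searched on both strands, none of these letter strings contains another, and a match shows no binding.

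The log2 differences of the other member synthases, Cers2, Cers4 and Cers5, lay between -0.04 and 0.14 above background, against 2.59 for Cers6. Cers5, which makes the same class of ceramide, gave 1598, 1668 and 1531 units on the control arrays and 1672, 1725 and 1901 on the shRNA arrays. Its groups were close together, with 1 shRNA array only 3 units above the highest control array, they overlapped on the normalized scale, and the log2 difference was 0.14 (SE 0.05). The dimmer Cers5 probe set gave 0.11 (SE 0.11), and neither was called. Cers2, the synthase of very-long-chain ceramides, gave 2677, 2289.6 and 2485 units on the control arrays and 2471, 2440.1 and 2409 on the shRNA arrays, and its groups overlapped. Its log2 difference was -0.04 (SE 0.05). Cers4 was measured above background by 2 probe sets. The brighter gave 308, 254 and 292 units on the control arrays and 349, 303 and 285 on the shRNA arrays, a log2 difference of 0.12 (SE 0.10), and the dimmer gave -0.04 (SE 0.13), both with overlapping groups. Cers1 was not analysed here, because its probe set is also annotated to Gdf1.

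Cers3 was not a member and was tested over all genes, although the list that holds it was made with earlier results of these data known. It fell in the shRNA cultures, from 1077 ± 57.3 to 827 ± 87.5 units (SD, n = 3), with 1142, 1052 and 1036 units on the control arrays and 728, 893 and 859.9 on the shRNA arrays. All shRNA arrays lay below all control arrays, with a log2 difference of -0.39 (SE 0.06) (limma adjusted p = 0.00379). It was called in all 16 alternative settings, but like Cers6 it rests on a single probe set. Among the 5 ceramide synthases measured, 1 was thus higher, 1 fell and 3 were not called.

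**Figure D2:**
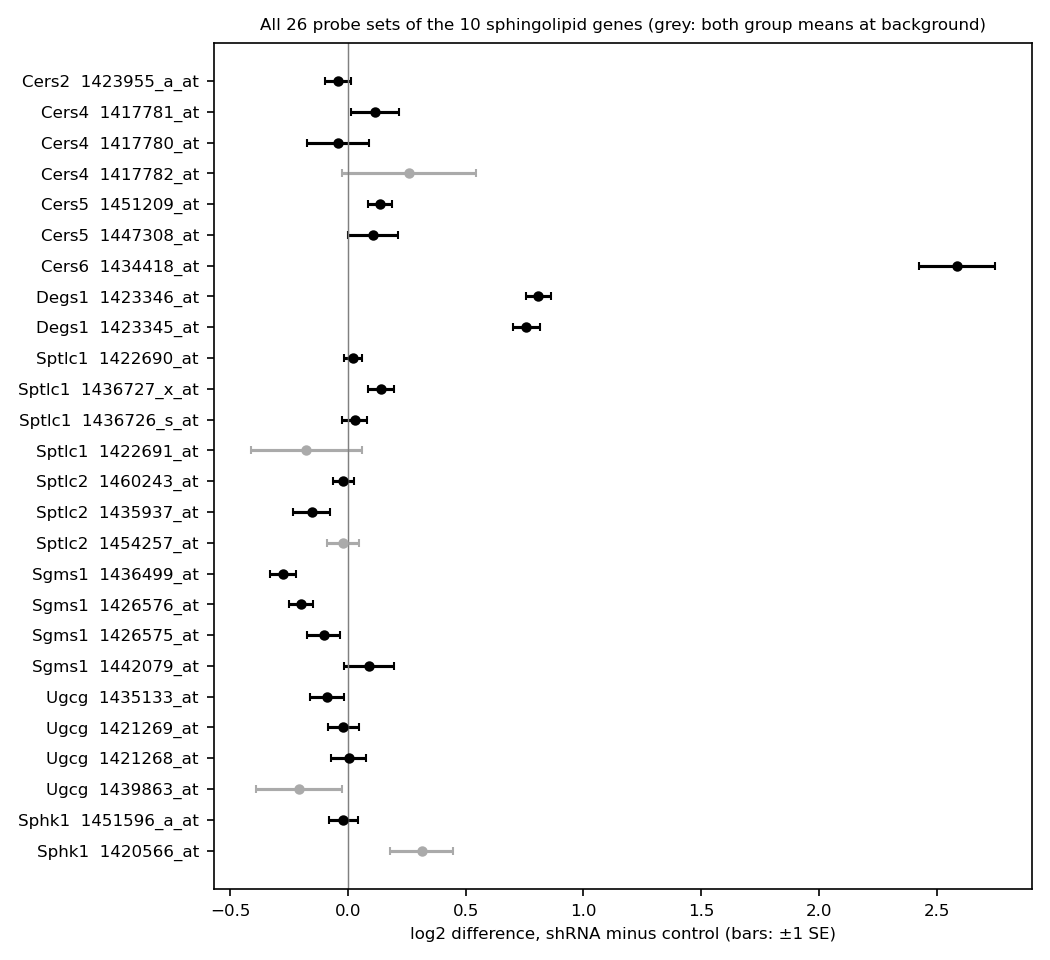
Log2 difference, shRNA minus control, with 1 SE on each side, for all 26 probe sets of the 10 genes, labelled by gene and probe set. Grey points had both group means within background. Cers6 stands at 2.59 and the Degs1 probe sets at 0.81 and 0.76, and all other black points lie between -0.28 and 0.14.

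Degs1, the desaturase that acts right after the ceramide synthases, was higher with the shRNA on both of its probe sets. The brighter gave 646, 706 and 713 units on the control arrays and 1173, 1308 and 1222 on the shRNA arrays. The group means were 689 ± 36.6 units (SD, n = 3) in control cultures against 1234 ± 68.4 (SD, n = 3) in knockdown cultures, with a log2 difference of 0.81 (SE 0.05), or 1.75-fold. The other probe set gave 509.9, 460.2 and 528 units on the control arrays and 819.8, 912 and 863 on the shRNA arrays, with a log2 difference of 0.76 (SE 0.06). The lowest shRNA array stood above the highest control array on both, and the levels were far above background, so the pseudocount had little weight. Degs1 ranked 97 from the top among 18193 genes. Both probe sets were called in all 15 alternative settings, over which the log2 differences were 0.75 to 0.84 and 0.70 to 0.81. As for Cers6, these settings reuse the same arrays and are no independent support. Its relative Degs2, which also hydroxylates the sphingoid base, went from 132 ± 7.16 to 138 ± 13.3 units (SD, n = 3) and did not pass the test (limma adjusted p = 0.857).

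The steps before the ceramide synthases showed small differences. Sptlc1, a subunit of serine palmitoyltransferase, gave 794, 830.0 and 771 units on the control arrays and 776, 853 and 832 on the shRNA arrays, with overlapping groups and a log2 difference of 0.02 (SE 0.04). Its other probe sets above background gave 0.14 (SE 0.06) and 0.03 (SE 0.05), and both are of a kind that can match several transcripts. Relative to the median of the genes on chromosome 13, the first and the last of these 3 turned to -0.05 and -0.04. Sptlc2, which carries the catalytic site, gave 615, 627 and 565 units on the control arrays and 564, 627 and 619 on the shRNA arrays, a log2 difference of -0.02 (SE 0.05). Its second probe set went from 227 to 203 units, a log2 difference of -0.15 (SE 0.08), and neither was called. The reductase gene Kdsr, tested outside the members, gave a log2 difference of 0.12 and did not pass (limma adjusted p = 0.136). Sptssa, the small subunit that activates the transferase, fell from 2216 ± 57.3 to 1987 ± 106 units (SD, n = 3), a log2 difference of -0.18 (SE 0.03) (limma adjusted p = 0.00923). The Sptssa call ended as deposited (0.0886), with arrays centred on their median (0.12), with the prior variance held constant over intensity (0.0809) and with the replicate block (0.0542).

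Of the enzymes that consume ceramide, Sgms1 was lower on its brighter probe sets and Ugcg was not called. Sgms1, the Golgi sphingomyelin synthase, gave 1241, 1133 and 1097 units on the control arrays and 856, 992 and 1032 on the shRNA arrays on its brightest probe set. All shRNA arrays lay below all control arrays, with a log2 difference of -0.28 (SE 0.06). The next probe set gave 715, 648 and 632 units on the control arrays and 580.4, 589 and 586 on the shRNA arrays, also without overlap, a log2 difference of -0.20 (SE 0.05). The 2 dimmer probe sets gave -0.10 (SE 0.07) and 0.09 (SE 0.11) with overlapping groups, so the probe sets of Sgms1 did not all point the same way. The call on the brightest probe set held in 5 of 15 settings. It was lost without control array 1, 2 or 3 and without shRNA array 1 or 2, where the log2 difference was -0.32 to -0.23 over all left-out arrays. It was also lost as deposited, with centred medians, with chromosome centring, without a trend and with the replicate block.

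Ugcg, which makes glucosylceramide, the root of the glycosphingolipids, was measured above background by 3 probe sets. Its brightest probe set gave 549.7, 473 and 514 units on the control arrays and 509.7, 473 and 472 on the shRNA arrays, with overlapping groups and a log2 difference of -0.09 (SE 0.07). The other probe sets above background gave -0.02 and 0.00 (SE 0.07 and 0.08). Sphk1, which phosphorylates sphingosine, gave 752, 838 and 856 units on the control arrays and 781, 825 and 827 on the shRNA arrays, with a log2 difference of -0.02 (SE 0.06). Neither gene was called on any probe set in any setting.

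**Figure D3:**
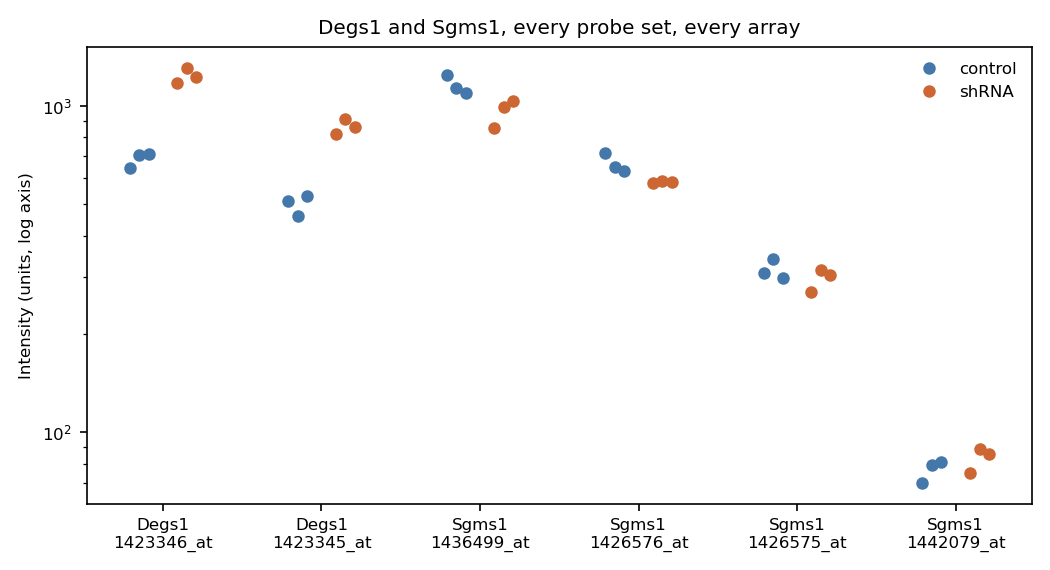
Intensity in units on a log axis for every probe set of Degs1 and Sgms1 on each array (control vector in blue, MKK4 shRNA in orange). Both Degs1 probe sets and the 2 brighter Sgms1 probe sets keep the groups apart, in opposite directions, and the 2 dimmer Sgms1 probe sets overlap.

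The rest of the sphingolipid pathway was described with a list of 82 further genes, of which 77 were measured by a probe set of their own. The list was made with earlier results of these data known, so its share of calls is a description. On the brightest probe set of each gene, 8 of 77 rose, 6 fell and 63 did not pass limma with Benjamini-Hochberg adjustment over all 18193 genes. That is 18.2%, beside 11.8% of all genes (6.37% higher, 5.39% lower). Above background 14 of 66 were called, or 21.2%, beside 15% of all such genes. The median log2 difference of the 77 was 0.00. The deposited values without normalization split the calls into 8 rises and 3 falls, and median centring into 6 and 3. In the fit of every probe set, used for the members, 11 of the same 77 probe sets were called, and Sgpp1 (adjusted p = 0.0547), Arsa (0.0513) and Hsd17b12 (0.0519) were not. The count was 11 without control array 1, 9 without control array 2, 8 without control array 3, and 9, 8 and 9 without shRNA array 1, 2 and 3. For these alternative settings the share of all genes called is not given here.

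The second sphingomyelin synthase gene, Sgms2, fell as well. It gave 2104, 1832 and 2022 units on the control arrays and 1529, 1550.3 and 1555 on the shRNA arrays, all shRNA arrays below all control arrays, with a log2 difference of -0.37 (SE 0.05) (limma adjusted p = 0.00259). Its dimmer probe set gave 0.15 and was not called, and the mean of both did not pass (-0.11, adjusted p = 0.389). Of the 9 genes of sphingomyelin synthesis and breakdown Sgms2 was the only one called, or 11.1%, beside 11.8% of all genes. Cert1, the protein that carries ceramide from the endoplasmic reticulum to the Golgi, rose from 1909.8 ± 30.1 to 2193 ± 43.1 units (SD, n = 3), a log2 difference of 0.18 (SE 0.03) (limma adjusted p = 0.00684). The Cert1 call ended with chromosome centring (0.0657), without a trend (0.0697) and with its probe sets averaged (0.106).

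Of 10 genes that make, export or break down sphingosine 1-phosphate, 3 rose and 7 did not pass the test. That is 30% called, beside 11.8% of all genes, a share that rests on few genes. Plpp3, a lipid phosphatase of the cell surface, rose from 131 ± 13.3 to 237 ± 24.6 units (SD, n = 3), with 124, 146 and 122 units on the control arrays and 213, 262 and 237 on the shRNA arrays. The groups were far apart, with a log2 difference of 0.77 (SE 0.10) (limma adjusted p = 0.00212), and the other probe set gave 0.62. Plpp3 passed in all 15 settings. Aldh3a2, the aldehyde dehydrogenase that clears the aldehyde left by sphingosine 1-phosphate lyase, rose from 342 ± 33.7 to 467 ± 40 units (SD, n = 3), a log2 difference of 0.42 (SE 0.08) (limma adjusted p = 0.0147). Without control array 3 its adjusted p was 0.0504, without shRNA array 2 it was 0.055 and without shRNA array 3 it was 0.0668. Sgpp1, a sphingosine 1-phosphate phosphatase named after its values were seen, rose by 0.26 on its brightest probe set (limma adjusted p = 0.0403) and gave 0.42 and 0.54 on the dimmer ones, which were called in the fit of every probe set. Its call ended without any 1 of the 6 arrays (adjusted p 0.0572 to 0.129), with centred medians (0.0502), without a trend (0.0669) and with the replicate block (0.0831). The kinase Sphk2 gave 0.10 (limma adjusted p = 0.51), and the lyase Sgpl1, which ends the pathway, -0.12 (limma adjusted p = 0.25). Of the 5 receptor genes S1pr1 to S1pr5, 0 passed in limma and 0 had an unadjusted p under 0.05. Only 3 of the 5 lay above background, since S1pr3 and S1pr5 were within it in both groups. With 11.8% of all genes called, 0 of 5 says little about this step.

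Among ceramidases, the neutral enzyme Asah2 rose from 160.4 ± 9.15 to 209.7 ± 3.93 units (SD, n = 3), a log2 difference of 0.35 (SE 0.08) (limma adjusted p = 0.0229). Its dimmer probe sets gave 0.01 and 0.10, and the call ended without any 1 of the 6 arrays (adjusted p 0.0545 to 0.0792), with the replicate block (0.074) and with its probe sets averaged (0.282). The lysosomal ceramidase Asah1 went from 4312 ± 116 to 4003 ± 249 units (SD, n = 3) and did not pass (limma adjusted p = 0.0678). In glycosphingolipid breakdown, Gm2a, the lysosomal activator that presents GM2 ganglioside to hexosaminidase, fell from 1674 ± 76 to 1263 ± 91.3 units (SD, n = 3), a log2 difference of -0.41 (SE 0.06) (limma adjusted p = 0.00295). A second Gm2a probe set gave -0.40 and the dimmest -0.06, and the call held in all 16 settings. Arsa, the sulfatase that degrades sulfatide, rose by 0.24 (limma adjusted p = 0.0347), a call that ended without control array 1, 2 or 3 or shRNA array 1 or 2 (adjusted p 0.0594 to 0.13) and with the replicate block (0.117), chromosome centring (0.128) or no trend (0.079). Of the 12 genes of glycosphingolipid synthesis 0 passed in limma, beside 11.8% of all genes, and only 9 of the 12 lay above background. The ganglioside synthase B4galnt1, named after its values were seen, was the 1 gene of the 12 at an unadjusted p under 0.05.

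The fatty acid elongation cycle, which supplies long acyl chains to the ceramide synthases, gave 2 rises and 2 falls among 12 genes. That is 33.3%, beside 11.8% of all genes, a share that rests on few genes. Hacd1, a dehydratase of the cycle, rose by 0.23 (limma adjusted p = 0.00588), and the elongase Elovl5, which acts on polyunsaturated chains, by 0.17 (limma adjusted p = 0.0119). The reductase genes Tecr (-0.16, limma adjusted p = 0.0227) and Hsd17b12 (-0.14, limma adjusted p = 0.0323) fell. Leaving out 1 array ended the Elovl5 call for shRNA array 2 (adjusted p = 0.0505), the Tecr call for control arrays 2 and 3 and shRNA arrays 1 and 3 (0.0582 to 0.0891), and the Hsd17b12 call for every array but control array 1 (0.0526 to 0.107). Without a trend none of the 4 passed (0.0501 to 0.166), and with centred medians or the replicate block Elovl5, Tecr and Hsd17b12 did not (0.0531 to 0.191 and 0.05004 to 0.0868). Tecr (0.0742) and Hsd17b12 (0.133) also missed as deposited, and Hsd17b12 with chromosome centring (0.416). Elovl6, which elongates palmitoyl-CoA, the main acyl substrate of Cers6, gave -0.01 (limma adjusted p = 0.974).

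**Figure D4:**
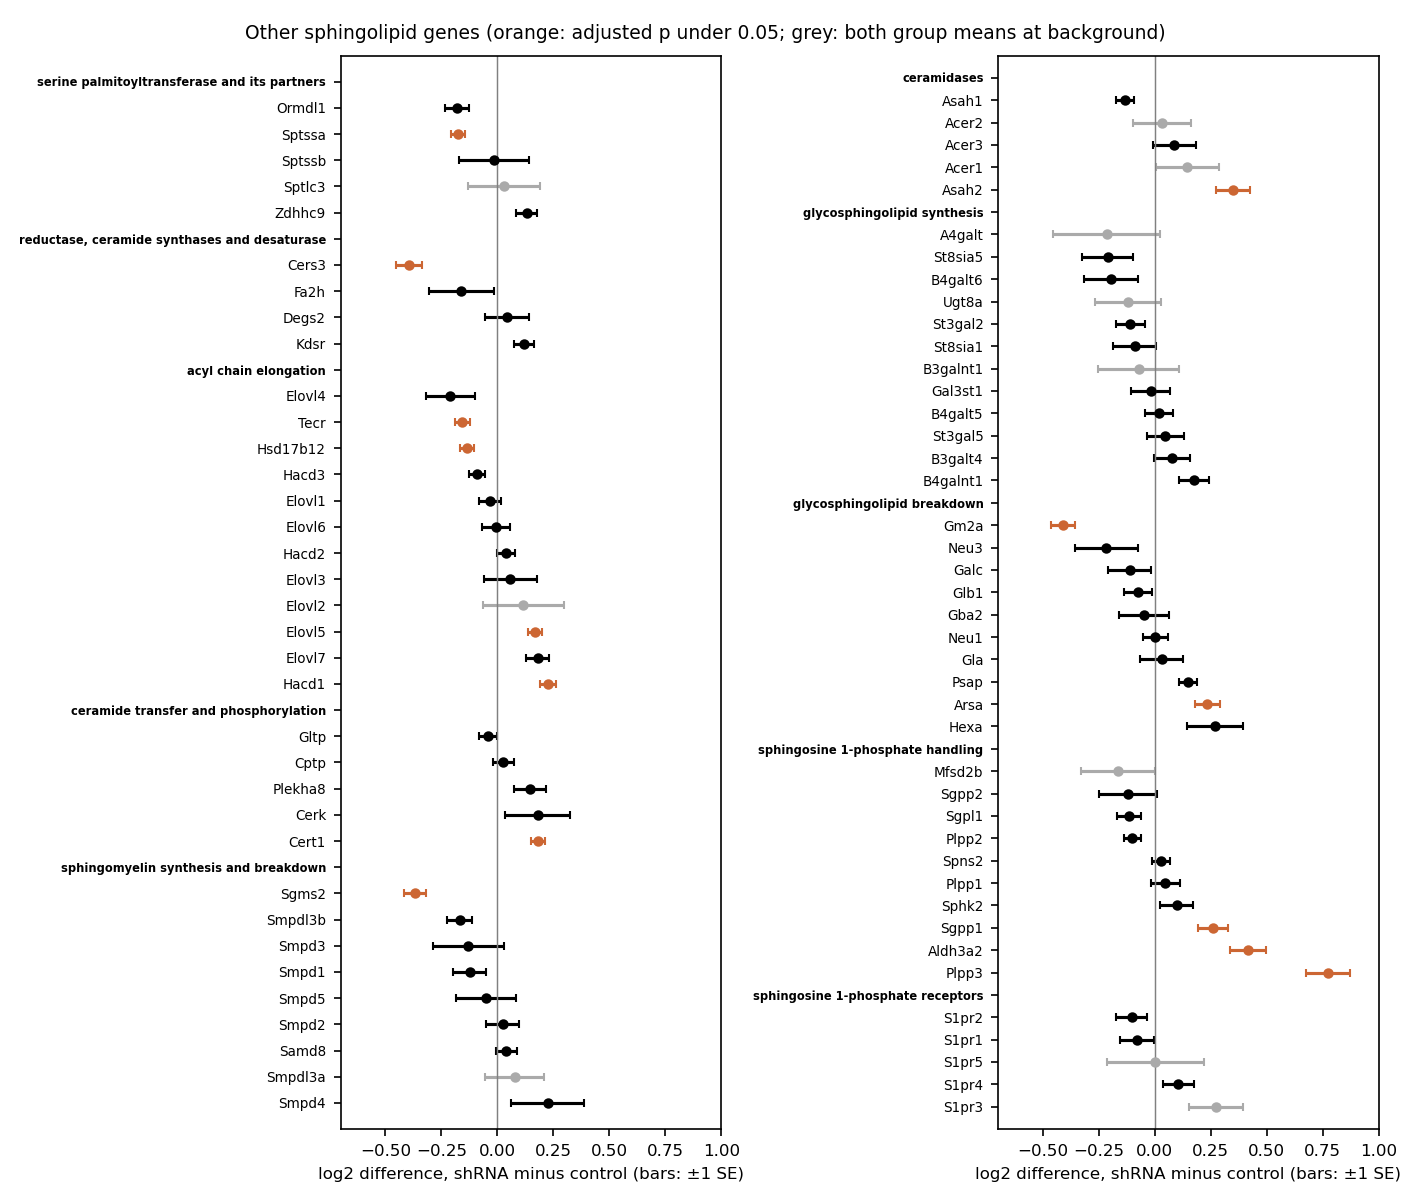
Log2 difference, shRNA minus control, with 1 SE on each side, for the 77 other sphingolipid genes by step of the pathway. Orange marks an adjusted p under 0.05 and grey both group means within background. Plpp3 at 0.77 is highest, and Gm2a at -0.41, Cers3 at -0.39 and Sgms2 at -0.37 are the lowest called genes.

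The genes whose values over the 6 arrays were most like those of Cers6 were Bbx, Cp, Kif21a, Bgn and Arhgap6. Likeness was the root mean square difference between log2 values centred on their own mean, and it ran from 0.165 for Bbx to 0.23 for Arhgap6. All 5 had log2 differences of 2.22 to 2.63, so the measure mainly picked genes with a difference between the groups of the same size. None is in the sphingolipid list.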

How the data were processed

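The members and gene lists were chosen with earlier results of these data known. RNA was labelled with biotin and hybridised to Affymetrix arrays, per the labels' protocols. The authors deposited 1 intensity per probe set and array on a linear scale. The method of summary, background correction and normalization is not given in the sources used here. A pseudocount of 16 was added, log2 was taken and quantiles were equalised between arrays (limma 3.58.1, R 4.3.3), so fold changes of dim genes are understated. The 64 control probe sets were left out. The platform annotation gave 34945 of 45037 probe sets 1 gene, 932 several and 9160 none, and 34741 were found in RefSeq by Entrez number, which set current symbols. Groups were compared with lmFit and eBayes (trend) over all probe sets, and over 18193 genes by the probe set with the highest mean, with Benjamini-Hochberg adjustment at 0.05. The fit was also run on simulated data with independent noise whose SD depended on intensity alone. That run does not check the fit for shared array effects or for spread particular to a gene. Means and SDs are of deposited intensities. Of the pathway list, the text names, per step of the pathway, up to 2 called genes in each direction by size above background, and a fixed set. Also named are Map2k4, called neighbours of Cers6 and the 5 genes most like it. Outside this rule, and after their values were seen, Sgpp1, B4galnt1, the marker genes and 4 neighbours of Ugcg are named. Alternatives were the values as deposited, centred medians, pseudocounts of 1 and 64, no dimmer probe sets, no trend, the replicate block, chromosome centring, no probe sets that can match several transcripts, averaged probe sets, and leaving out each array.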

Additional observations from a re-analysis of the deposited data

How the results depend on the processing

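The 26 log2 differences of the members were recomputed under 14 or 15 settings each, 382 values in all. None of the called ones changed sign, 371 moved by less than 1 SD between replicates, and 11 moved by more: 7 through the pseudocount, among them Cers6 (1.98 to 2.89), and 4 through chromosome centring. The count of called member probe sets was 3 or 4 without any 1 array, 5 of 20 without the dimmer probe sets, beside 4300 of 22518 (19.1%) over all probe sets in that setting, and 2 genes of 10 when all probe sets of a gene were averaged, where Sgms1 was not called. Over all probe sets the 2868 calls (1610 higher, 1258 lower) became 1842 (1229 higher, 613 lower) with values as deposited, 941 without a trend in the prior variance, 1139 with the replicate block and 1183 to 1867 without 1 array. The 14 called pathway genes became 9 with arrays centred on their median, 6 without a trend, 7 with the replicate block, 8 to 11 without 1 array and 16 of 44 (8 higher, 8 lower) without the dimmer probe sets. Of these 14 genes, Cers3, Gm2a and Plpp3 were called in every setting in which they could be fitted. The share of all genes called in each alternative setting is not given here. The pathway counts by setting, and the 2 of 10 with averaged probe sets, are therefore no comparison with other genes. No named gene changed sign in a setting where it was called. The replicate letters of the labels were tried as a block. Deviations of arrays with the same letter correlated at -0.0982 to -0.00734, and those of arrays with different letters at -0.083 to 0.116. With 3 arrays per group this cannot settle whether the letters mark pairs. With 5 arrays the tests have less precision. Signals below 39.5 units limit 5 member probe sets, and the control level of Cers6 lies just above.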

Other observations

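Position along the chromosome was not used to choose the genes. Over the 5 measured genes on each side of each member, in the order of GRCm38.p6, 14 of 100 were called in limma at an adjusted p under 0.05, 8 higher and 6 lower, beside 11.8% of all genes. Around Cers6 the 10 neighbours had log2 differences of -0.31 to 0.04, and 1 was called: Spc25, a kinetochore gene, fell from 1296 to 1103 units (log2 -0.24). The large difference of Cers6 was thus not shared by the measured genes beside it, although 5 of the 10 neighbours had both group means within background. Around Degs1 the 10 neighbours ranged from -0.20 to 0.21, with 1 called higher and 1 lower. The median log2 difference was -0.07 over the genes of chromosome 2, where Cers6 lies, and 0.01 over those of chromosome 1, where Degs1 lies.

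The neighbours of Ugcg, picked out after their values were seen, gave 4 calls among 10, all lower: Gng10 (-0.27), E130308A19Rik (-0.26), Hsdl2 (-0.25) and Ptbp3 (-0.21). Ugcg itself gave -0.09 on its brightest probe set and was not called, and the median over the genes of its chromosome was -0.02. Asah2, which rose, is the measured gene next to Sgms1, which was lower.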
